A study of Sus scrofa with 12 samples.

Results

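Among the 188 gene probes of a spotted pig immune array, 6 named genes of the interleukin-1 (IL-1) system were followed: the cytokines IL1b (probe CY8), IL1a (CY7) and IL18 (CY28), the sensor Nalp3 (INN9), and the caspases Casp1 (RG21) and Casp13A (RG20). They were chosen by the name printed for each spot, and each was spotted 8 times per array, 48 of the 1680 spots in all. The choice was made with their log ratios in these comparisons already known, so those ratios are given as a description and carry no test. RefSeq's gene list for pig assembly Sscrofa11.1 held 5 of the 6 names (IL1B, IL1A, IL18, CASP1 and NLRP3). In that assembly IL1A and IL1B are neighbours on chromosome 3, with 0 protein-coding genes starting between them, CASP1 and IL18 lie on chromosome 9, and NLRP3 lies on chromosome 2. The same list also has IL1B2, a second gene of the IL-1 beta kind, and signal from IL1B and IL1B2 transcripts cannot be told apart here, since probe sequences were not used here.

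IL-1 beta and IL-18 are made as inactive precursors. Caspase-1, a protease, cuts both into active cytokines after it has itself been switched on in the inflammasome, a protein complex built around a sensor such as NLRP3. IL-1 alpha, the close relative of IL-1 beta, acts through the same receptor and does not need caspase-1 to be active. In blood, monocytes are the main source of IL-1 beta, and transcription of the IL-1 genes and of NLRP3 is switched on by bacterial sensors that act through NF-kB. Casp13A bears the name of caspase-13, an inflammatory caspase described in cattle. The arrays measured transcripts only, so cutting of the precursors and caspase activity were not measured.

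Blood mononuclear cells of Yorkshire boars were compared between 3 genotypes of SLA-DRB1, which encodes 1 chain of a swine class II antigen-presenting molecule. They were allele 050502, allele 070701 and a possibly new allele that the labels call New. Each genotype had 2 boars, and the cells were separated on a density gradient and not treated further. The boars' ages are not given in the sources used here. Each hybridised pair set a boar of 1 genotype against a boar of another on a two-colour array, and was run again with the dyes exchanged. This gave 2 hybridised pairs, A and B, and 4 arrays (A1, A2, B1, B2) for each of the 3 comparisons, 12 arrays in all. The labels do not say which hybridised pairs share a boar. Ratios below are log2, of the genotype named first over the second, so that 1 stands for a doubling, and SD is the spread between pairs A and B.

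Pair A of 050502 vs New stood apart from the rest. Its ratios ran against those of pair B, with r = -0.54 across the 185 probes tested, while pairs A and B had r = 0.60 for 050502 vs 070701 and 0.64 for 070701 vs New. Its dye exchange arrays also agreed least, with r = 0.19 against 0.66 to 0.85 for the other pairs. Probes are not independent, so these values only describe the arrays. The direction of 050502 vs New is therefore not settled, and its member ratios are given as labelled, with pair A turned, and for pair B alone. Median foreground intensity over the arrays ranged from 378 to 1965.5 in red and from 495 to 2040.5 in green, against backgrounds of 96 to 320 and 113 to 359.5. Both pairs of 050502 vs New held an array with few detected probes. Of 188 probes, A1 detected 101 in red, and B1 detected 127 in red and 103 in green. The highest backgrounds were also those of pair B, so pair B alone is not a clean reference either.

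Detection was high for all 6 members. A channel counted as detected when at least 0.5 of a probe's spots exceeded the local background by 2 of its SD, and 5 members were detected in 24 of 24 channels over the 12 arrays. Casp1 was detected in 23, the exception being the 050502 channel of array B1 of 050502 vs New. No member spot had saturated pixels, and 1 spot, of IL18, was marked as not found. Against the negative controls, which were DNA of a Rhodococcus gene and of a plasmid, the probes differed. Nalp3 was brighter than both controls in 22 of 24 channels, Casp1 in 16, IL1b in 15, Casp13A in 14, IL1a in 5 and IL18 in 2. Ratios of IL1a and IL18 therefore come mostly from signals no brighter than DNA without a counterpart in pig cells, and how much of them is unspecific binding was not tested. Over all 185 tested probes, 46 had a mean log2 signal above both controls, 3 of the members among them.

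IL1b gave the widest ratios of the 6 members. For 050502 over 070701 the log2 ratio was 1.29 on array A1, 1.88 on A2, 2.15 on B1 and 2.18 on B2, so all 4 arrays lay well above 0. On array B2 the raw signal above background was 11763 in the 050502 channel and 2889 in the 070701 channel. The mean was 1.88 (SD 0.41, n = 2 hybridised pairs), a 3.67-fold higher signal in 050502. The 070701 channel exceeded both negative controls on 2 of the 4 arrays and the 050502 channel on 4, so the fold rests in part on signal no brighter than control DNA. Leaving out either pair gave 1.59 or 2.16.

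For 050502 over New the same probe split by pair. The ratio was -1.98 and -1.71 on arrays A1 and A2, and 2.43 and 2.69 on B1 and B2, where raw signals on B2 were 17145 for 050502 and 2160 for New. The mean as labelled was 0.36 (SD 3.12, n = 2), the mean with pair A turned was 2.20 (SD 0.51), and pair B alone gave 2.56, or 5.91-fold. The sizes in pairs A and B were thus alike and the signs opposite. Between 070701 and New the 4 arrays gave -0.028, 0.33, 0.24 and 0.13, with a mean of 0.17 (SD 0.025, n = 2). That is a 1.12-fold ratio, and the arrays lay on both sides of 0.

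**Figure D1:**
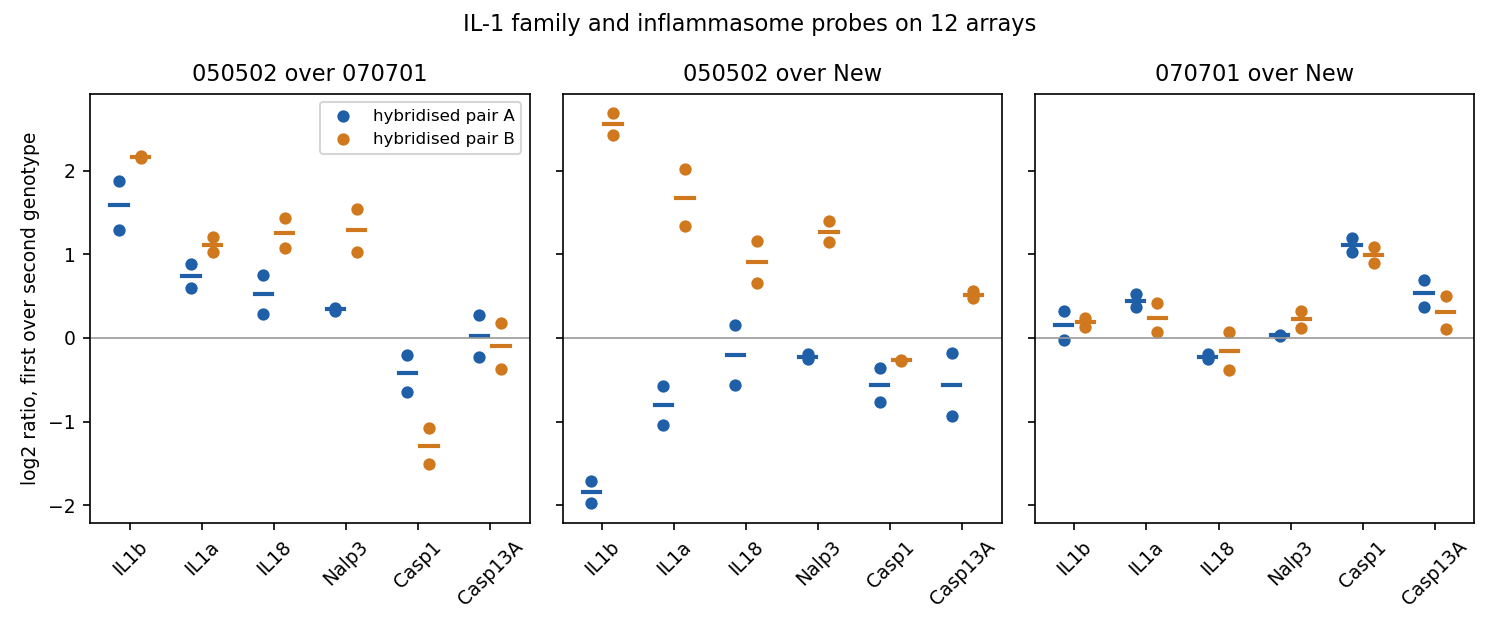
Log2 ratio of each member (x axis) on each array, with 1 panel per genotype comparison; points are arrays, colours are hybridised pairs A and B, and bars are the mean of the arrays of a pair. In the middle panel IL1b stands near -1.85 in pair A and 2.56 in pair B, while Casp1 stands at 0.89 or above on every array of the right-hand panel.

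IL1a had the shape of IL1b at smaller size. For 050502 over 070701 its ratios on A1, A2, B1 and B2 were 0.60, 0.88, 1.21 and 1.02. The mean was 0.93 (SD 0.27, n = 2, 1.91-fold). Each of these arrays showed more IL1a signal in the 050502 boar. For 050502 over New they were -0.57, -1.04, 2.02 and 1.34, with a mean of 0.43 (SD 1.76) as labelled, 1.24 (SD 0.61) with pair A turned and 1.68 in pair B. For 070701 over New they were 0.37, 0.53, 0.42 and 0.073 (mean 0.35, SD 0.14, n = 2), so the 4 arrays leaned to 070701.

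IL18, whose product drives interferon gamma release from lymphocytes, had the dimmest signal of the 6, with a median of 881 above background. The ratios for 050502 over 070701 were 0.29, 0.76, 1.43 and 1.07. The mean was 0.89 (SD 0.51, n = 2, 1.85-fold), and the lowest array of pair B lay above the highest of pair A. For 050502 over New the arrays of pair A disagreed, at 0.16 and -0.56, while those of pair B were 1.16 and 0.66. The means were 0.35 (SD 0.79) as labelled, 0.56 (SD 0.50) with pair A turned and 0.91 in pair B. For 070701 over New the arrays gave -0.25, -0.20, 0.070 and -0.39 (mean -0.19, SD 0.046, n = 2). IL18 was thus the only member with a mean below 0 in that comparison.

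Nalp3, the sensor around which the NLRP3 inflammasome forms, followed the cytokines. For 050502 over 070701 it stood at 0.33, 0.36, 1.55 and 1.03, with a mean of 0.82 (SD 0.67, n = 2, 1.76-fold). Both arrays of pair B exceeded both of pair A. For 050502 over New it stood at -0.25, -0.19, 1.39 and 1.15, with means of 0.52 (SD 1.06) as labelled, 0.75 (SD 0.74) with pair A turned and 1.27 in pair B. In 070701 over New it was 0.035, 0.029, 0.33 and 0.12 (mean 0.13, SD 0.14, n = 2), a ratio of 1.09-fold that is no larger than the spread between the pairs.

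Casp1, the protease that cuts the IL-1 beta and IL-18 precursors, ran the other way in the 050502 vs 070701 comparison. Its ratios there were -0.64, -0.20, -1.08 and -1.51. The mean was -0.86 (SD 0.61, n = 2), so that signal was 1.81-fold lower in 050502, and pair A alone gave -0.42 and pair B alone -1.29. For 070701 over New the arrays gave 1.03, 1.20, 1.09 and 0.89. The mean was 1.05 (SD 0.085, n = 2), which is 2.07-fold higher in 070701. The New channel exceeded both negative controls on 0 of these 4 arrays and the 070701 channel on 4, so the size of the fold rests on a New signal at the level of control DNA. Casp1 was higher in the 070701 boar on 8 of the 8 arrays that held this genotype, and turning pair A of 050502 vs New does not touch any of them.

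For 050502 over New, Casp1 was at -0.77, -0.36, -0.26 and -0.27 as labelled (mean -0.42, SD 0.21, n = 2). It was the only member with all 4 arrays on the same side. With pair A turned the mean became 0.15 (SD 0.59), which changes its direction, and pair B alone gave -0.27. On array B1, 1 of 8 spots was detected in the 050502 channel. The 050502 channel of Casp1 exceeded both negative controls on 1 of the 4 arrays and the New channel on 3.

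Casp13A, the other caspase, had no common direction for 050502 over 070701, at -0.23, 0.28, 0.18 and -0.37. Its mean was -0.036 (SD 0.083, n = 2), and in both pairs the arrays of the dye exchange had opposite signs. For 070701 over New it was at 0.37, 0.70, 0.51 and 0.10 (mean 0.42, SD 0.16, n = 2, 1.34-fold), with all 4 arrays on the side of 070701, as for Casp1. The New channel of Casp13A exceeded both negative controls on 0 of these 4 arrays and the 070701 channel on 3. The size of this fold, too, rests on a New signal at the level of control DNA. For 050502 over New it was at -0.18, -0.94, 0.56 and 0.48, with means of -0.020 (SD 0.76) as labelled, 0.54 (SD 0.029) with pair A turned and 0.52 in pair B.

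The cytokines were then set against the protease that activates them within each hybridised pair, as the difference between log2 ratios on the same arrays. In the 050502 vs 070701 pairs IL1b exceeded Casp1 by 2.01 in A and 3.46 in B, and IL18 exceeded it by 0.95 and 2.54. In both pairs the cytokine ratios were positive and the Casp1 ratio negative. In the 070701 vs New pairs the order was reversed, with IL1b below Casp1 by differences of -0.96 and -0.81 and IL18 by -1.33 and -1.15. There the IL1b ratios were close to 0, at 0.15 and 0.19, and Casp1 carried the difference, at 1.11 and 0.99.

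In 050502 vs New pair B, IL1b at 2.56 exceeded Casp1 at -0.27 by 2.83. In pair A both were negative, at -1.85 and -0.56, a difference of -1.28, which becomes 1.28 with the pair turned. Signs of cytokine and Casp1 ratios were opposite in 3 of the 6 hybridised pairs for IL1b, in 3 for IL1a and in 5 for IL18, and these counts do not change when a pair is turned. The cosine of the ratios over the 6 hybridised pairs, a likeness that runs from -1 to 1 and that also stays the same when a pair is turned, was -0.31 for IL1b with Casp1, -0.20 for IL1a and -0.67 for IL18. The 6 hybridised pairs share boars, so these values only describe them.

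**Figure D2:**
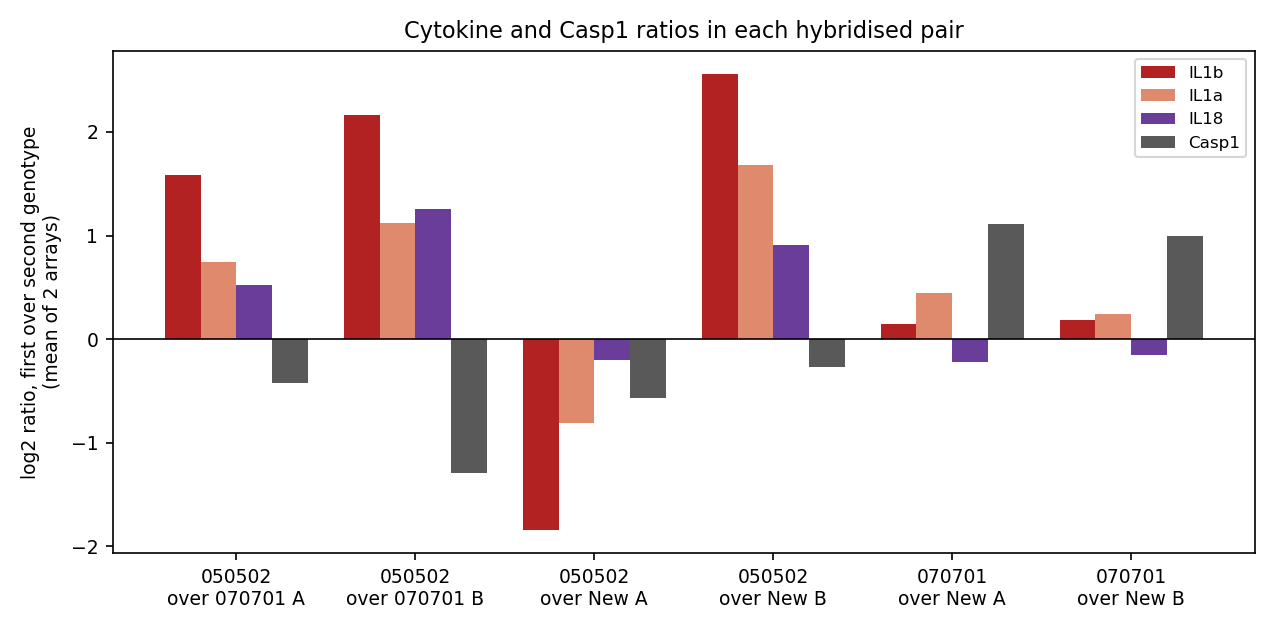
Log2 ratio of the 3 cytokine probes and of Casp1 (y axis, mean of the arrays of a dye exchange) in each of the 6 hybridised pairs (x axis). The red IL1b bar and the grey Casp1 bar point in opposite directions in both 050502 over 070701 pairs and in 050502 over New B.

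Among themselves, the members fell into likenesses of very different size. IL1b and IL1a had a cosine of 0.97 and the same sign in 6 of 6 hybridised pairs. IL1b and Nalp3 had 0.91 and also 6 of 6, and IL18 and Nalp3 had 0.95 with 4 of 6. Casp1 had negative cosines with the 3 cytokines and with Nalp3 (-0.45), and a positive cosine only with Casp13A (0.57, same sign in 4 of 6). IL1a and IL1b spots lay side by side in all 4 print blocks, and the part of neighbouring spots or of cross-hybridisation in their likeness was not tested.

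Levels by genotype set out the same normalized arrays channel by channel, so they restate the ratios and are not separate evidence. Each genotype was hybridised 4 times, and the level is the normalized log2 intensity of its channel averaged over the dye exchange. IL1b in 050502 was at 9.73 in the hybridisation with New A and at 11.81, 12.17 and 12.51 in the others. In 070701 it ran from 9.996 to 10.34, and in New it was at 11.58 in pair A and from 9.85 to 10.15 in the others. As labelled the 050502 levels therefore overlapped both other genotypes, through pair A only. Without pair A the lowest 050502 level, 11.81, lay above the highest level of 070701 and New. With pair A turned 050502 ran from 11.58 to 12.51 and New from 9.73 to 10.15. By mean level as labelled the order was 050502 (11.55, SD 1.249), New (10.38, SD 0.81) and 070701 (10.14, SD 0.17), and the ranges of neighbours in that order overlapped.

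Casp1 levels were ordered differently. In 070701 they were 10.92, 11.36, 10.87 and 10.88, above every level of 050502 (9.81 to 10.50) and of New (9.76 to 10.38). The 070701 mean of 11.01 (SD 0.24) stood apart from 10.05 (SD 0.32) in 050502 and 10.03 (SD 0.27) in New, whose ranges overlapped each other. With pair A turned the ranges were 9.81 to 10.50 in 050502 and 9.76 to 10.08 in New, still below 070701. The 4 values of a genotype come from 2 boars.

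The other members were less clearly split. Nalp3 in 050502 ran from 10.69 to 11.53, above the 10.20 to 10.53 of 070701, while New spanned 10.06 to 11.04 and overlapped both. Without pair A New ran from 10.06 to 10.30, below the lowest 050502 level of Nalp3. IL1a in 050502 ran from 9.13 to 10.95 as labelled, and from 10.25 without pair A, against highest levels of 9.78 in 070701 and, without that pair, 9.44 in New. IL18 ran from 9.03 to 10.04 in 050502, from 8.45 to 9.24 in 070701 and from 9.12 to 9.46 in New, so that all 3 overlapped. Without pair A the lowest IL18 level in 050502 was 9.51, above the other ranges. Casp13A overlapped in all 3 genotypes, with means of 9.94, 10.14 and 9.92 for 050502, 070701 and New. In such samples, fewer cells of a type and less RNA per cell cannot be told apart.

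**Figure D3:**
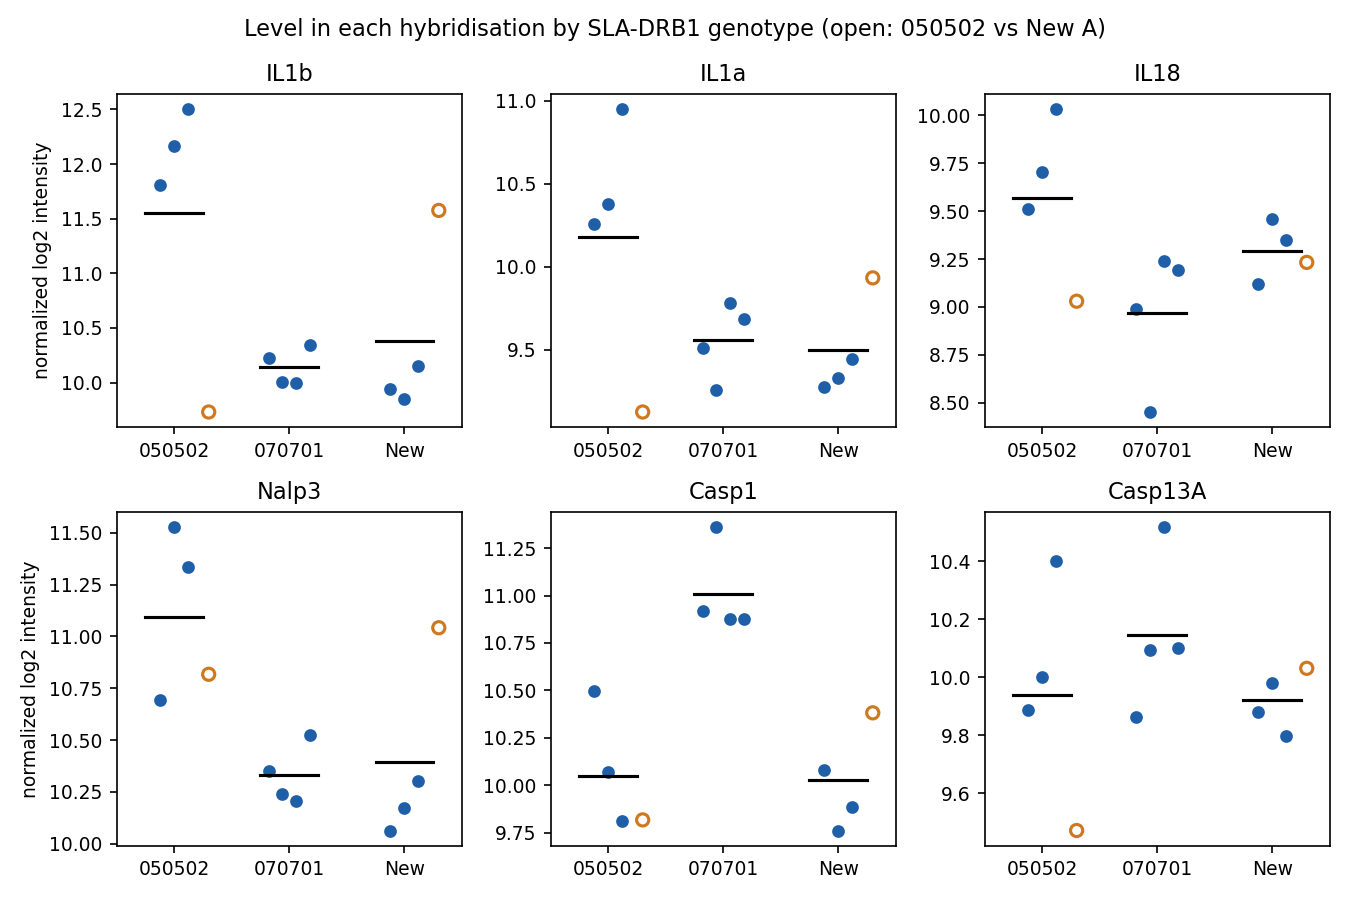
Normalized log2 intensity (y axis, not starting at 0) of each member in each hybridisation, by SLA-DRB1 genotype (x axis); filled points are hybridised pairs, open points are pair A of 050502 vs New, and lines are means of 4. The 4 Casp1 points of 070701 (10.87 to 11.36) lie above all points of the other genotypes, and the open points of IL1b fall at the opposite ends to the filled ones.

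By the series' design each boar was set against a boar of each other genotype, though the labels do not name the boars. If so, the mean ratios of 050502 over 070701 and of 070701 over New should add up to that of 050502 over New. For IL1b the sum was 2.04, against 0.36 measured as labelled and 2.20 with pair A turned. For IL1a it was 1.28 against 0.43 and 1.24, for Nalp3 0.94 against 0.52 and 0.75, and for IL18 0.70 against 0.35 and 0.56. For Casp1 the sum was 0.20, against -0.42 as labelled and 0.15 turned, and for Casp13A 0.38 against -0.020 and 0.54. The gap between sum and measurement was 0.34 to 1.69 for the 6 members as labelled and from -0.16 to 0.20 with the pair turned. Over all 185 probes the median gap was 0.11 in size as labelled and 0.085 turned. As labelled, the members' gaps were thus larger than that of the median probe, with IL1b the largest. With the pair turned, IL1b (-0.16), IL18 (0.14), Casp13A (-0.15) and Nalp3 (0.20) still exceeded the median in size. IL1a (0.034) and Casp1 (0.046) lay below it. The members were chosen with their ratios known, and larger ratios leave room for larger gaps, so nothing is read from this comparison. The cause of the gaps was not tested.

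**Figure D4:**
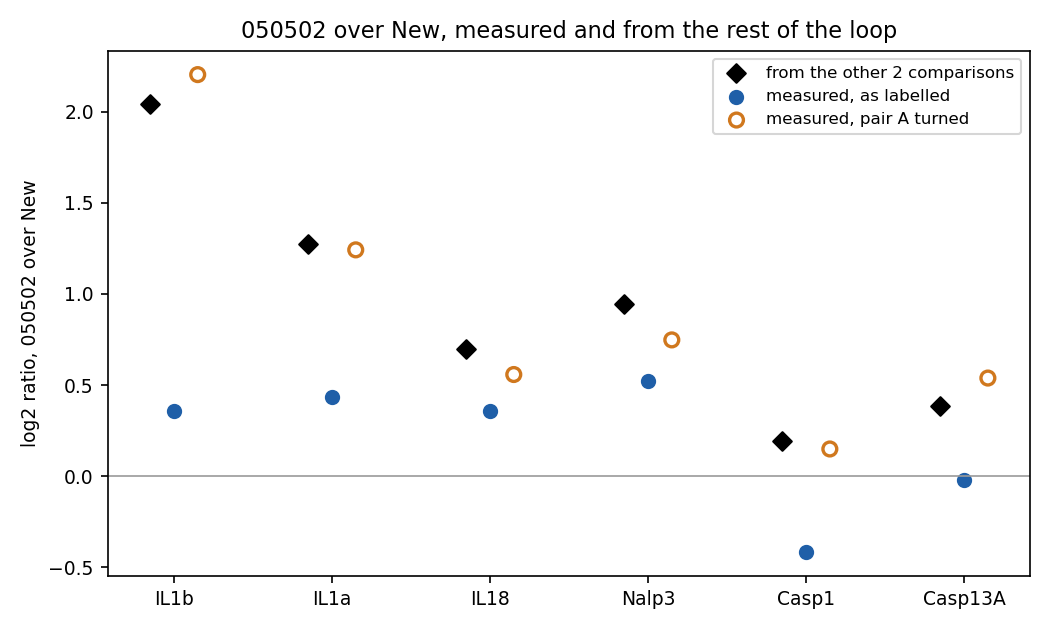
Log2 ratio of 050502 over New (y axis) for each member (x axis): diamonds are the sum of the ratios from the other comparisons, filled circles the measured mean as labelled, open circles the measured mean with pair A turned. For IL1b the diamond is at 2.04, the filled circle at 0.36 and the open circle at 2.20.

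Under the fit across all probes no member passed. In limma with Benjamini-Hochberg adjustment over 185 probes, 0 of 6 members passed in 050502 vs 070701, where 1.08% of all probes did, 0 of 6 in 050502 vs New, where 0% did, and 0 of 6 in 070701 vs New, where 1.08% did. At an unadjusted p under 0.05 the members counted 2, 0 and 1, against 15, 15 and 14 of all probes. Counting members whose 4 arrays all pointed the same way gave 5 of 6 in 050502 vs 070701 (29.2% of all probes), 1 of 6 in 050502 vs New (9.19%) and 4 of 6 in 070701 vs New (29.7%). Because the members were chosen with these ratios known, nothing is read from those shares. These counts changed when single hybridised pairs were turned or left out. With pair A of 050502 vs New turned, IL1b passed in 050502 vs 070701 (2.16% of all probes). IL1b and Casp13A then passed in 050502 vs New (also 2.16%). Pair A was turned because its ratios ran against those of pair B. Turning lowers the spread of every probe whose pairs had opposite signs, so nothing is read from these passes. For Casp13A the turned pair rests on arrays at -0.18 and -0.94 as labelled. Leaving out a pair of 050502 vs New leaves 1 pair there, which takes the SD of 3.12 of IL1b out of the shared spread. IL1b then passed in 050502 vs 070701 at an unchanged ratio of 1.88, and without pair A in 050502 vs New at 2.56. Leaving out a pair of 050502 vs 070701 likewise removes the SD of 0.61 of Casp1. Casp1 then passed in 070701 vs New at an unchanged 1.05. These passes come with the removed spread, on members chosen with their ratios known, so nothing is read from them.

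The probes whose ratios were most like IL1b over the 6 hybridised pairs were IL10, a cytokine that restrains inflammation (cosine 0.99), MP1a (0.98), IL1a (0.97), IL10Rb, a chain of the IL-10 receptor (0.96), and c-REL, an NF-kB factor (0.96). Their sizes differed widely, since IL10 ran from -0.46 to 0.58 and c-REL only from -0.027 to 0.070, against -1.85 to 2.56 for IL1b. The probes most opposed to IL1b were IgArp (-0.96), the chemokine MCP-1 (-0.93) and TCReta (-0.93). The probes most like Casp1 were the chemokine SDF-1 (0.93), LTBP2 (0.87), TCRd (0.87), FcRN, which prolongs the life of IgG (0.86), and IL2R (0.84). Most of these varied little: SDF-1 ran from -0.17 to 0.14, LTBP2 from -0.12 to 0.084 and IL2R from -0.11 to 0.15. TCRd ran from -0.29 to 0.27 and FcRN from -0.26 to 0.55, against -1.29 to 1.11 for Casp1. The probes most opposed to Casp1 were the chemokine lymphotactin (-0.94), MHC-DY (-0.90) and INFa (-0.86). Lymphotactin ran only from -0.13 to 0.19 and INFa from -0.040 to 0.13. MHC-DY, which bears the name of a ruminant class II gene, had ratios of 1.01, 1.24, -0.061, -0.099, -1.12 and -0.93 in the 6 pairs in order, where Casp1 had -0.42, -1.29, -0.56, -0.27, 1.11 and 0.99. IL8 was most like Nalp3 (0.99) and next to IL1b for IL1a (0.96). IL10Rb and IL8R were closest to IL18 (0.97 and 0.95), IL10Rb was second for Nalp3 (0.97), and IFNtp and CTLA4 were closest to Casp13A (0.91 and 0.76). Over all probes, the arrays of a dye exchange differed by a median of 0.17. Ratios of c-REL, SDF-1, LTBP2, IL2R and INFa were no larger than that in size. The part of array noise in these likenesses was not tested.

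Other genes of the pathway were taken from lists of receptors, sensors, NF-kB factors and cytokines, 22 probes in all. In limma 0 of 22 passed in each of the 3 comparisons, with 1, 4 and 0 at an unadjusted p under 0.05. Their median log2 ratio was 0.11 for 050502 over 070701, against 0.85 for the 6 members and -0.004 for all probes, 0.14 against 0.36 and 0.002 for 050502 over New as labelled (0.11, 0.65 and 0.020 with pair A turned), and 0.004 against 0.26 and 0.006 for 070701 over New. The members were chosen with their ratios known and the other probes were not, so nothing is read from these medians. The probe named IL1antag, read here as the IL-1 receptor antagonist that blocks IL-1 at its receptor, was at -0.092 (SD 0.036), 0.0001 (SD 0.13) and 0.040 (SD 0.077, n = 2 each) in the 3 comparisons, beside 1.88, 0.36 and 0.17 for IL1b. With pair A turned, 050502 over New was at 0.094 for IL1antag and 2.20 for IL1b. Only 46 of all 185 probes had a mean signal above both negative controls, and it is not given here for single pathway probes. A ratio near 0 for IL1antag or another such probe therefore does not show equal transcript levels.

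The bacterial sensors NOD1 and NOD2 were at 0.091 and 0.12 for 050502 over 070701, beside 0.82 for the sensor Nalp3. Of 8 probes for priming sensors and signalling, 7 had ratios above 0 for 050502 over 070701 (median 0.17, against -0.004 for all probes). NFKB1 enters with both of its probes, and some ratios were small, as c-REL at 0.060 and RelB at 0.11. The share of all probes above 0 was not counted, so nothing is read from this count. Among the 8 probes the sizes differed. TLR2, the receptor for bacterial lipoproteins, was the largest at 0.87 (SD 0.35, n = 2), and in 050502 vs New it stood at -1.54 in pair A and 1.32 in pair B, split as IL1b was. CD14, its partner in sensing bacteria, was at 0.26, and TLR4, the endotoxin receptor, at 0.24. The NFKB1 probes were at 0.14 and 0.20, and NFKB2 at -0.003.

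Of 10 cytokine and chemokine probes listed as downstream of IL-1 or made with it, 6 had ratios above 0 for 050502 over 070701 (median 0.097). Nothing is read from this count either. Those furthest from 0, larger in size than every member except IL1b, were MPIb at 1.45 (SD 0.60), the neutrophil attractant IL8 at 1.33 (SD 0.91) and MP1a at 1.09 (SD 0.45, n = 2 each). MP1a and MPIb are the array's spellings and are read here as the macrophage inflammatory proteins, CCL3 and CCL4. IL8 reached -0.68 in pair A and 2.51 in pair B of 050502 vs New. TNFa was at 0.11 and IL6 at 0.087, while MCP-1 was at -0.22 (SD 0.13).

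**Figure D5:**
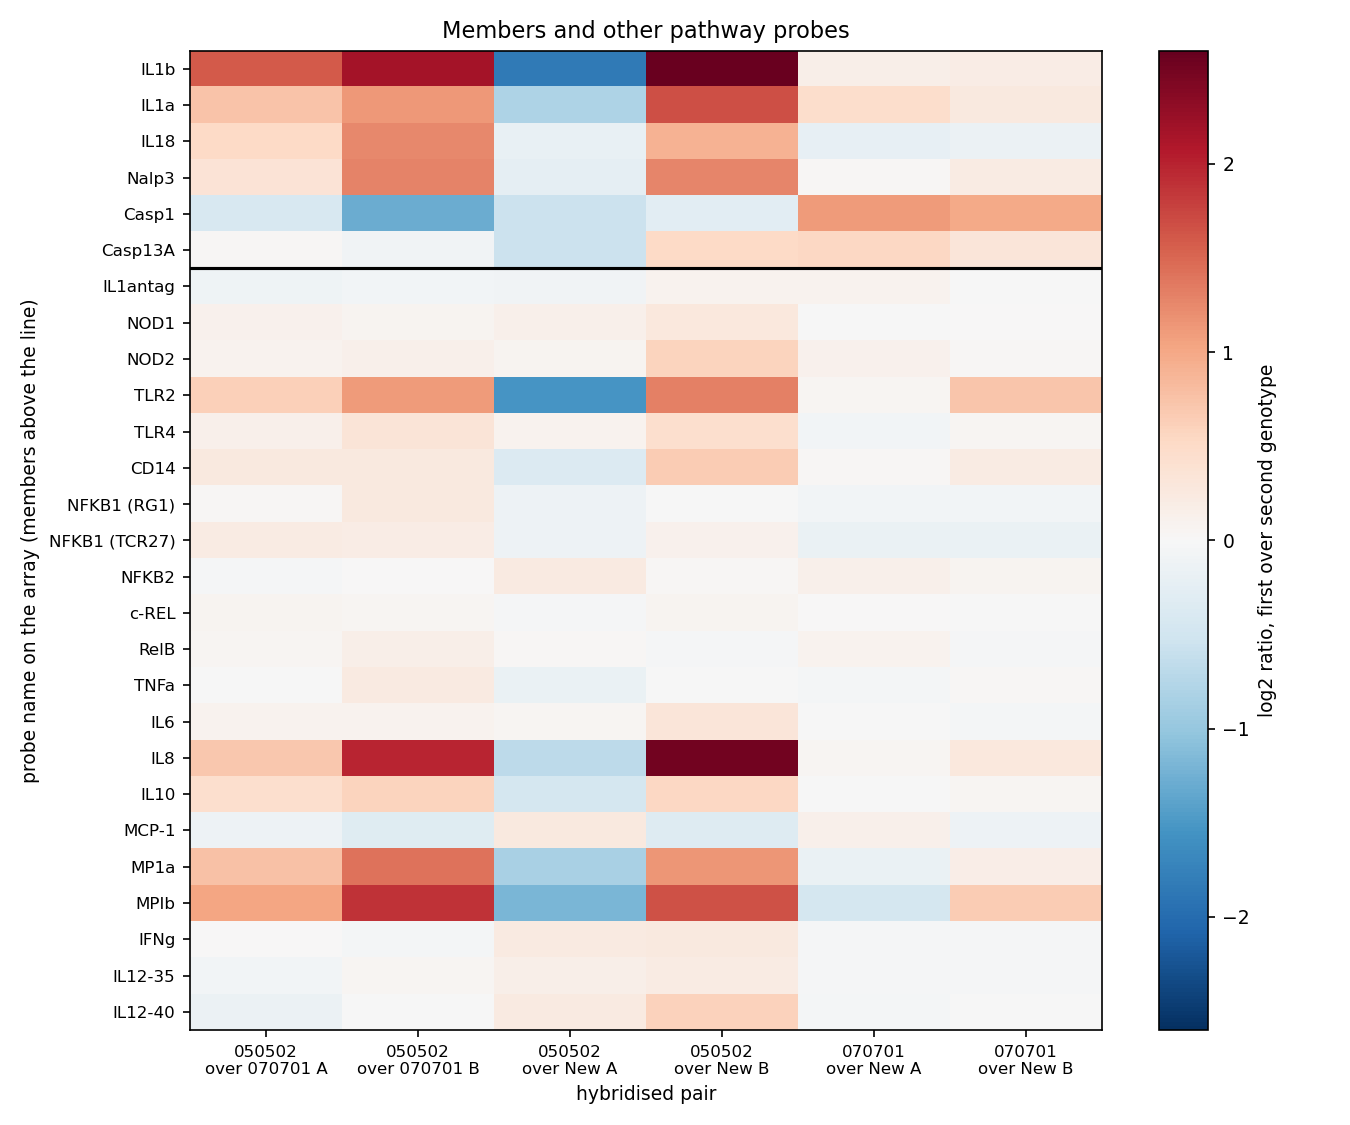
Log2 ratio (colour, red for higher in the genotype named first) of the 6 members and of other pathway probes (rows) in the 6 hybridised pairs (columns). IL8, TLR2, MP1a and MPIb have the colours of IL1b, blue in 050502 over New A and red in the other columns that hold 050502, while most other rows stay near 0.

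Markers of the cells in the preparation were set beside IL1b and Casp1. Over the 5 markers of monocytes and dendritic cells, the median ratio in pairs A and B was 0.036 and 0.26 for 050502 over 070701, -0.13 and 0.22 for 050502 over New, and 0.10 and 0.083 for 070701 over New, beside 1.59, 2.16, -1.85, 2.56, 0.15 and 0.19 for IL1b. CD14, a defining monocyte marker, had 0.26, 0.26, -0.36, 0.65, 0.032 and 0.21, the same signs as IL1b at much smaller size. The rest of the list did not share this: TLR4, CD80, CD86 and FcRgIII each departed from the signs of IL1b in some pair. In 050502 vs New, TLR4 had 0.097 and FcRgIII 0.18 in pair A, and CD80 had -0.032 in pair B. CD86 had -0.17 in pair B of 050502 vs 070701. Of the granulocyte markers, Lactoferrin was detected on 1 of 12 arrays and was not tested, and IL8R was at 0.054, 0.99, -0.079, 0.77, -0.25 and 0.025. The medians of 10 T cell probes for the 3 comparisons were -0.14, -0.045 and 0.023, and those of 4 B cell probes -0.004, -0.43 and -0.28. The cytotoxic cell probe Granzyme was at 0.35, -0.044 and -0.28. With pair A turned, the values for 050502 over New were -0.12 for the T cell probes, -0.25 for the B cell probes and 0.062 for Granzyme, whose sign changed. By the mean over pairs, 9 of 10 T cell probes lay below 0 for 050502 over 070701. For 070701 over New, 7 of 10 lay above 0 by that mean, but the hybridised pairs split. Their T cell medians were 0.095 (A) and -0.036 (B), against -0.13 (A) and -0.14 (B) for 050502 over 070701. CD28 enters with both of its probes, and the shares of all probes were not counted, so nothing is read from these T cell counts. TCRa, a T cell receptor chain, had -0.36 and -0.86 in the pairs of 050502 over 070701, 0.36 and -0.042 for 050502 over New, and 0.62 and 0.37 for 070701 over New. It was singled out after its values were seen, and its signs were those of Casp1 except in pair A of 050502 vs New. The rest of the T cell list did not share this. For 070701 over New, where Casp1 was above 0, CD3d had -0.19 and -0.15 and TCRb -0.095 and -0.22 in pairs A and B. Signal against the negative controls is not given here for single markers, so a marker ratio near 0 does not show equal cell shares. The part of cell composition in the IL1b and Casp1 ratios was not tested.

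Scan dates were compared as a batch. The arrays were scanned on 5 dates, and only 1 date held 2 comparisons, namely pair A of 050502 vs 070701 and pair B of 070701 vs New. Within it, IL1b was at 1.59 and 0.19 and Casp1 at -0.42 and 0.99, so the order of both probes was that of the means over pairs. Both hybridised pairs are part of those means, so this order is no separate check of scan date. Pair A of 050502 vs New was scanned alone on its date, so that pair and its date cannot be told apart.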

How the data were processed

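Per the labels' protocols, RNA of untreated blood mononuclear cells was amplified in 1 round and labelled with a red or a green Alexa Fluor dye. Scanner intensity and the percent of saturated pixels, for each spot and its local background, were deposited without normalization and were read with GenePix Pro 6.0.1.25, per the file headers. The authors' deposited table of log2 ratios, red over green, matched the scanner log ratio to 0.001 and was an alternative only, its column medians lying between -0.69 and 0.60.

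Foreground medians were background-corrected in limma 3.58.1 (R 4.3.3) with normexp (offset 50) and normalized by loess within arrays, with control and not-found spots at weight 0. Replicate spots were averaged, ratios turned to the genotype named first, and dye exchanges averaged to 6 values. Probes detected on at least 6 of 12 arrays were kept, 185 of 188. The fit (lmFit, eBayes, two-sided) had 1 coefficient per comparison and 3 residual degrees of freedom, and treats the 6 values as independent. Adjustment was by Benjamini-Hochberg, threshold 0.05. Levels used Aquantile. The fit was first tested on simulated data. The number of arrays limits the precision.

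The members, lists and alternatives were chosen with earlier results of these data known. All 6 members are named, with the 5 most and 3 least alike probes for IL1b and Casp1, the 2 most alike for each other member, and pathway and marker genes from fixed lists. Of the 22 pathway probes, 1 enters the counts and medians but is not reported here by itself. Alternatives were no background subtraction, median centring, the deposited table, medians of spots, other filters, single arrays of a dye exchange, left-out or turned pairs, a replicate block and scan date as a random block.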

Additional observations from a re-analysis of the deposited data

How the results depend on the processing

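Over 6 settings (no background subtraction, median centring, the deposited table, medians of spots, and either array of each dye exchange), 17 of the 18 member ratios kept their sign. The exception was Casp13A for 050502 over New, between -0.23 and 0.19. IL1b for 050502 over 070701 lay between 1.58 and 2.03 and Casp1 between -0.89 and -0.73. Of these 108 values, 12 moved by more than the SD between pairs. Those of IL1b and Casp1 were, for 070701 over New, IL1b at 0.12 without background subtraction, 0.24 with median centring, and 0.11 and 0.23 on array 1 and array 2, and Casp1 at 0.77 without background subtraction, 1.15 with median centring and, in the deposited table, 0.86. With pair A of 050502 vs New turned, Casp1 went to 0.15.

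Leaving out a hybridised pair in turn gave IL1b from 1.59 to 2.16 for 050502 over 070701, from -1.85 to 2.56 for 050502 over New and from 0.15 to 0.19 for 070701 over New. The same ranges for Casp1 were -1.29 to -0.42, -0.56 to -0.27 and 0.99 to 1.11. Members passing in limma numbered 0 to 1 in each comparison when single pairs were left out, those of the other comparisons included, an alternative added after seeing the data. Where a left-out pair leaves 1, it is assumed to vary like the others, so nothing is read from that number. With pair A of 050502 vs New turned, 1 member passed in 050502 vs 070701 and 2 in 050502 vs New, beside 4 of all 185 probes in each. That turn was chosen because pairs A and B ran against each other, so nothing is read from these counts. With scan date as a random block over single arrays, which treats both arrays of an exchange as separate samples, Casp1 passed in 050502 vs 070701 and in 070701 vs New (1 member each), beside 6 and 9 of all 185 probes, against 2 and 2 without the block. With the replicate block, 0 members passed in each comparison. The differences between A and B correlated across probes at 0.53, 0.62 and 0.43 between comparisons, but the labels do not say that a letter marks the same boars. Dim signal limits IL1a and IL18 most.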

Other observations

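The arrays of a dye exchange differed by a median of 0.33 in log2 ratio for the 6 members and by 0.17 for all 185 probes. The largest such gap among members, 0.76, belonged to Casp13A in pair A of 050502 vs New. Within an array, the SD over the 8 spots of a probe had medians from 0.13 for Casp13A and Nalp3 to 0.20 for Casp1, and its highest value was 0.43, for IL18.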
